A study of Mus musculus with 8 samples.

Results

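Among 17546 MOF peaks, 2958 of those in the range below overlapped no called H3K4me3 or H3K27ac peak but had such a peak within 10 kb. These mark-free peaks were selected on the peak lists themselves: they were on chromosomes 1 to 19, had a score below 8100, shared no base with an H3K4me3 or H3K27ac peak, and had the nearest such peak at most 10 kb away, edge to edge. They made up 2958 of the 17196 MOF peaks with that score on those chromosomes. A further 6420 MOF peaks were mark-free and lay farther than 10 kb from a mark, 5992 overlapped both marks, 1127 overlapped H3K4me3 only and 699 overlapped H3K27ac only. The distance, the absence of marks and the upper score limit are therefore descriptions of the choice and not findings.

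All libraries came from total epidermis of the back skin of wild-type mice at postnatal day 0.5, and no mutant or treated group was used. ChIPseq, the pull-down of fixed and sheared chromatin with an antibody, served for MOF, and Cut&Run, in which an antibody brings a nuclease to its target, served for H3K4me3, H3K27ac and Rfx2. Of the 8 libraries, which covered 6 antibodies, 4 peak lists were used here, with 1 list per antibody. There was thus no spread between replicates, the lists do not show how deeply the libraries were sequenced, and every interval below is a 95% interval that covers counting error over peaks only.

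MOF, also named KAT8, is the acetyltransferase that places the acetyl group on lysine 16 of histone H4, a modification known for loosening the packing of nucleosomes. Promoters in use carry H3K4me3, and promoters and enhancers in use carry H3K27ac. MOF peaks outside both marks are therefore in regions that these marks do not label as active promoters or enhancers. The absence of a peak call does not show that a mark was absent, since a mark below the threshold of the peak caller is not in the lists. The H3K4me3 list is tied to a repeat library by the labels, but it cannot be told with certainty from which of the H3K4me3 libraries it was called.

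The tissue label was checked at the TSSs of marker genes. An H3K4me3 peak lay within 1 kb of a TSS of 5 of 8 keratinocyte markers (Krt5, Krt14, Trp63, Dsp and Itga6), but of none of Krt1, Krt10 and Lor, the markers of the differentiated layers. The same held for 3 of 4 melanocyte markers, 2 of 4 dermal fibroblast markers, 0 of 3 immune markers and 0 of 2 endothelial markers, so H3K4me3 was called at marker genes of other cell types too. An H3K27ac peak was there for 3 of 8 keratinocyte, 2 of 4 melanocyte and 0 of 4 fibroblast markers, and a MOF peak for 2 of 8, 0 of 4 and 1 of 4. Neither was at an immune or endothelial marker. The part of other cell types in the results below was not tested.

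The sequences below show the features that recurred in the results. The first 4 are the members with the highest scores among those with a CTCF core motif in the 200 bp at their centre, on all chromosomes used but the eighteenth, and were chosen after their values were seen. CTCF is a zinc finger protein known for binding insulators and the anchors of chromatin loops. The next lies upstream of Wnt10a, a Wnt ligand of the skin. All 5 are from the mouse assembly GRCm38.p6 (mm10), are read 5′ to 3′ on the strand given, and have the letters of the CTCF core in capitals.

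Near Snord14e (chr9:40805445-40805516, - strand): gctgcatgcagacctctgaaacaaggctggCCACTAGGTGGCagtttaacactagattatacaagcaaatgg
Intron of Evpl (chr11:116226581-116226652, + strand): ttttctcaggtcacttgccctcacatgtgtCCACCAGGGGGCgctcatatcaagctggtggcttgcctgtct
Intron of Stk32c (chr7:139208184-139208255, + strand): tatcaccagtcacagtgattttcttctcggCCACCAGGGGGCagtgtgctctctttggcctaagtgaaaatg
Near Tbcb (chr7:30216984-30217055, - strand): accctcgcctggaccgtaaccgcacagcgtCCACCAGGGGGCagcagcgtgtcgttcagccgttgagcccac
Upstream of Wnt10a (chr1:74787951-74788070, + strand): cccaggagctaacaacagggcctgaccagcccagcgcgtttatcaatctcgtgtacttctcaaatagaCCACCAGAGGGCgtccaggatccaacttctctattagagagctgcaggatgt

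Of these members, the one near Snord14e scored 1528 at 2708 bp from a mark, that in Evpl, which encodes a cornified envelope protein, 1223 at 6441 bp, that in Stk32c 1220 at 4166 bp and that near Tbcb 1143 at 2016 bp. All 4 scores are above the member median of 544, since the score picked them. The member named by Tbcb lay 14449 bp from a TSS of that gene.

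The last 4 are the centres of members among the 10 with the highest scores, shown because many words of their sequence recurred elsewhere in the assembly. The central 31 bases are in capitals, and the sequences are on the + strand of the same assembly.

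Upstream of Ccl27a (chr4:41808837-41808956, + strand): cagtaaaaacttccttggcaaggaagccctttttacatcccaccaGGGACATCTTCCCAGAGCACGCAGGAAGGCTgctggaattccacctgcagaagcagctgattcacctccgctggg
Upstream of Cerk (chr15:86195016-86195135, + strand): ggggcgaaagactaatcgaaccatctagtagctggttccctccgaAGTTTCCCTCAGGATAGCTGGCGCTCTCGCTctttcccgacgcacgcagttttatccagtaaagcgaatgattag
Intron of Pde1c (chr6:56240570-56240689, + strand): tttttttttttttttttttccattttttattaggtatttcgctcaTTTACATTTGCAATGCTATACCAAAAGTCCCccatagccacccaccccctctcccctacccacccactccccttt
Intron of Sfi1 (chr11:3168762-3168881, + strand): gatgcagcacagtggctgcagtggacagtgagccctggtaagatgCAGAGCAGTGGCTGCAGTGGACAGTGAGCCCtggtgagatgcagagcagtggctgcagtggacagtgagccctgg

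The gap from a member to the nearest marked peak ranged from 0 to 9998 bp, with a median of 4618.5 bp and quartiles of 2102.75 and 6952.75 bp. H3K4me3 was the nearer mark for 1675 members and H3K27ac for 1276, and 7 were equally far from both. Within 10 kb, 1586 members had both marks, 654 had H3K4me3 alone and 718 had H3K27ac alone. Marks lay within 10 kb on both sides of 564 members (19.1%). The 3 members with the largest gaps stood 9998, 9986 and 9983 bp away, and the first 3 peaks outside the limit stood 10006, 10008 and 10008 bp away. The highest member scores were 6477, 5954 and 5624, and the 4 mark-free peaks within 10 kb that were left out by score had 9144, 9165, 9662 and 12657.

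The distance to a mark chose the members, so the densities by distance are a description and not a test, with intervals for the counting of peaks. The mark-free genome within 10 kb of a mark covered 484.7 Mb, or 20.5% of all mark-free genome on these chromosomes, and held 31.5% (30.6 to 32.5) of the mark-free MOF peaks, or 17.0% with a limit of 5 kb, 48.7% with 20 kb and 19.8% with the 50% of mark peaks of highest significance. The territory changes with each of these settings, so only the 31.5% can be set beside the 20.5%. By the position of peak centres, there were 5.95 peaks per Mb within 10 kb and 3.45 per Mb beyond, a ratio of 1.72 (1.65 to 1.80). With the 50% of mark peaks of highest significance the ratio was 1.69 (1.61 to 1.77), with 5 kb 1.38 and with 20 kb 2.02. Against the genome 10 to 20 kb from a mark, with 6.28 peaks per Mb, the ratio was 0.948 (0.892 to 1.01). This joins a lower density at 0.5 to 4 kb, with a ratio of 0.832 (0.770 to 0.899) to the same ring, and a higher one at 4 to 10 kb, with 1.11 (1.03 to 1.19). Against the genome more than 50 kb away, with 2.25 peaks per Mb, it was 2.65 (2.51 to 2.79).

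**Figure D1:**
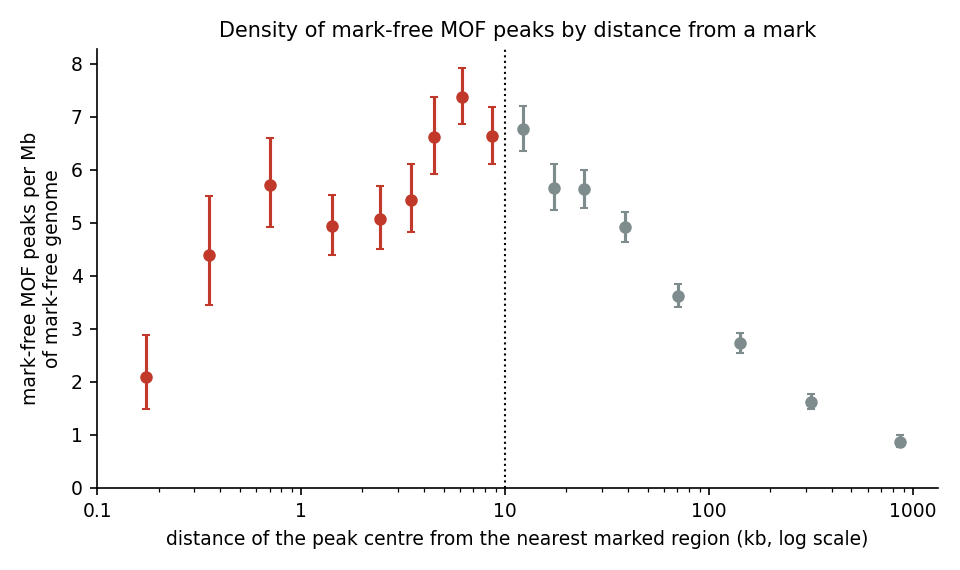
Mark-free MOF peaks per Mb of mark-free genome (vertical axis) by distance of the peak centre from the nearest marked region (horizontal axis, kb, log scale). Points are bins drawn at their middle on the log scale, bars are exact Poisson 95% intervals, and the dotted line is the 10 kb limit. Density rose from 2.1 peaks per Mb in the first 0.25 kb to 7.38 at 5 to 7.5 kb, was 6.77 at 10 to 15 kb and fell to 0.873 beyond 500 kb.

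Next to the marks the density was lower than farther out. At 0.5 to 4 kb there were 5.23 peaks per Mb, against 6.96 at 4 to 10 kb, a ratio of 0.751 (0.695 to 0.811). In the first 0.5 kb there were 3.20 peaks per Mb, and there the width of a peak limits how close its centre can lie without overlap. The plot of density by distance shows a broad maximum at 4 to 15 kb, so the 10 kb limit of the choice did not coincide with a step.

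The ratio differed between kinds of sequence. In the intergenic space, the density within 10 kb of a mark was 2.1 times (1.97 to 2.24) that beyond, and in introns it was 1.34 times (1.25 to 1.43). In exons the ratio was 0.982 (0.839 to 1.15), and in promoters, which were taken to start 1 kb before a TSS and to end 100 bp after it, it was 0.817 (0.592 to 1.12). In exons and promoters, the density pooled over the first 10 kb was thus not distinguishable from that farther away. The pooled values join unlike zones. Within 1 kb, at 1 to 5 kb and at 5 to 10 kb of a mark, promoters had 3.74, 11.5 and 16.5 (10.6 to 24.5) peaks per Mb. Exons had 8.33, 8.92 and 14.5 (12.2 to 17.2). At 10 to 20, 20 to 50 and over 50 kb, promoters had 8.37, 11.2 and 7.06 and exons 12.4, 11.9 and 9.60.

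Most members lay away from promoters. By their centres, 1329 were intergenic (44.9%), 1280 intronic (43.3%), 271 exonic (9.16%) and 78 in promoters (2.64%). The mark-free genome within 10 kb of a mark was 44.3% intergenic, 48.3% intronic, 5.01% exonic and 2.35% promoter. The exonic share of the members was therefore above that of their territory, with an interval of 8.15 to 10.3%, and the intronic share was below it, with an interval of 41.5 to 45.1%. Of the 271 exonic centres, 180 were in coding sequence, 75 in untranslated parts of coding transcripts and 16 in noncoding transcripts.

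**Figure D2:**
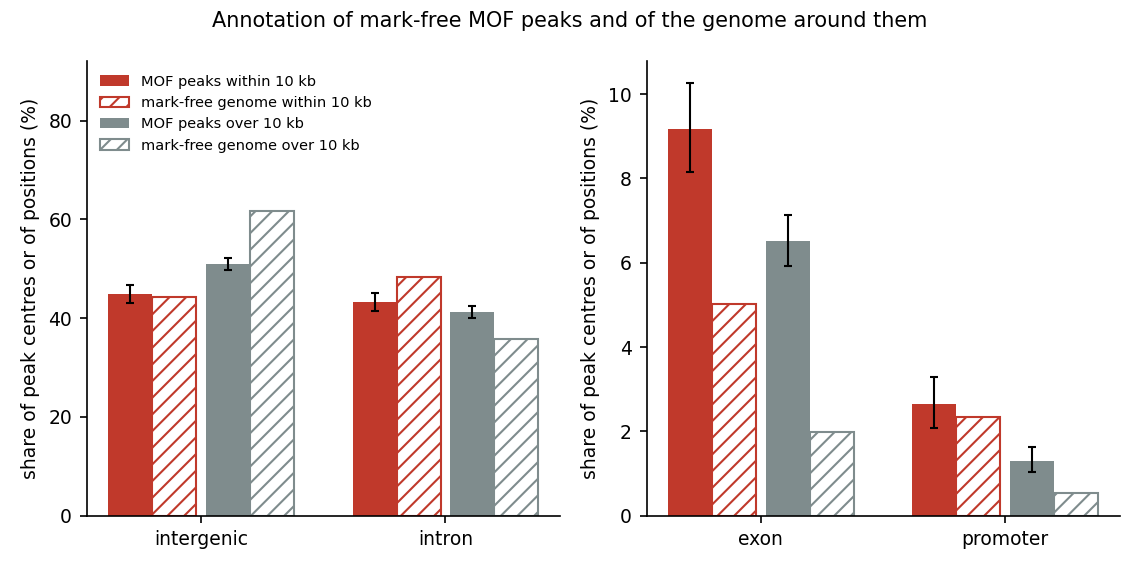
Share (%) of peak centres, filled bars, and of positions of the mark-free genome, hatched bars, in each annotation class, for the territory within 10 kb of a mark (red) and beyond (grey). Error bars are exact 95% intervals, and the right panel has its own axis. Exons held 9.16% of members against 5.01% of their territory, and 6.51% of the farther peaks against 1.99% of theirs.

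Mark-free peaks farther away were 51.0% intergenic, 41.2% intronic, 6.51% exonic and 1.31% in promoters. The members exceeded them by 2.65 percentage points in exons (1.48 to 3.89) and by 1.33 points in promoters (0.725 to 2.02). The difference in introns was 2.09 points, with an interval from -0.0594 to 4.25 that includes 0.

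Of the members, 112 had their centre at most 1 kb from a TSS (3.79%, 3.13 to 4.54), against 31.2% of all 17196 MOF peaks with a score below 8100 and 77.2% of those on both marks. Peaks on H3K4me3, a mark of promoters, were left out by the choice, so these contrasts are not independent of it. The share among the farther mark-free peaks was 2.88%, a difference of 0.905 points (0.137 to 1.75), and among H3K27ac-only peaks it was 4.29%. With the 50% of mark peaks of highest significance, the share of the members was 5.98%. The 112 members served 110 nearest genes, had scores of 246 to 3547 with a median of 571, and 11 of them had high CpG content. Members near the edge of a mark were nearer to TSSs. At gaps below 500 bp, 16.2% (11.4 to 22.2) of the 197 members were at most 1 kb from one. At 5 to 10 kb it was 1.84% (1.19 to 2.70) of the 1360 members. No matching share of the territory was computed for these gaps. A TSS within 10 kb was found for 1368 members (46.2%), 647 of them upstream of it (47.3%, 44.6 to 49.98), slightly fewer than downstream of it, and the farther mark-free peaks had 46.2% (42.8 to 49.6).

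High CpG content, an observed over expected CpG ratio of at least 0.6 with a GC content of at least 50% in the central 200 bp, marks the CpG islands at which many promoters start. It was found in 115 members (3.89%, 3.22 to 4.65), against 25.0% of all MOF peaks in the score range, 59.4% of those on both marks and 32.3% of those on H3K4me3 only. As with the TSSs, leaving out peaks on H3K4me3 bears on these contrasts by the choice. Members exceeded the H3K27ac-only peaks, with 1.86%, by 2.03 points (0.583 to 3.11). With the 50% of mark peaks of highest significance, the share of the members was 5.84%. The difference from the farther mark-free peaks was 0.149 points (-0.657 to 1.02), within counting error.

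Members were narrow. Their median width was 383 bp (375 to 396), with quartiles of 284 and 792 bp and a maximum of 4267 bp, beside 357 bp (351 to 363) for the farther mark-free peaks, 554 bp for H3K27ac only, 640 bp for H3K4me3 only and 965.5 bp for both marks. A wide peak is more likely to touch a mark, so the widths of marked and mark-free classes are not independent of the choice. The deposited MOF regions contain inner blocks, and the widest inner block had a median of 218 bp in members and 310.5 bp on both marks.

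**Figure D3:**
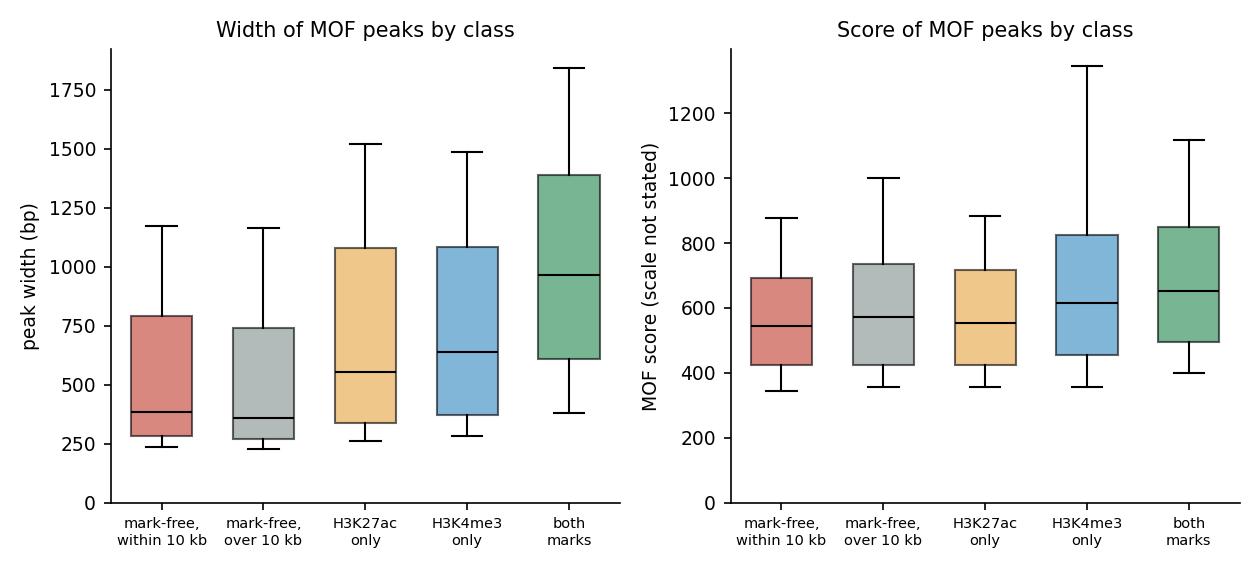
Width (left, bp) and score (right, scale not stated) of MOF peaks in 5 classes by overlap with H3K4me3 and H3K27ac. Boxes span the quartiles with the median as a line, and whiskers reach the 10th and 90th percentiles. Members, in red, had a median width of 383 bp against 965.5 bp on both marks, and a median score of 544 against 651.

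Scores differed less than widths. The median score of members was 544 (531 to 557), beside 571 for the farther mark-free peaks, 553 (529 to 571) for H3K27ac only, 615 (590 to 646) for H3K4me3 only and 651 (645 to 651) for both marks. No order of the score with the gap was distinguishable. Its median was 533 (494 to 582) below 500 bp, 540 at 0.5 to 2 kb, 553 at 2 to 5 kb and 538.5 (518 to 560) at 5 to 10 kb, with overlapping intervals. The scale of the score is not stated in the file, so it was used only to rank peaks within the MOF list.

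The marked region nearest to a member held a MOF peak at a share somewhat below that of the territory around marks. Overlapping H3K4me3 and H3K27ac peaks were joined into 37960 regions, of which 21.7% (21.3 to 22.2) overlapped a MOF peak. The nearest region of 598 of 2958 members did so (20.2%, 18.8 to 21.7), against 24.1% (23.1 to 25.2) for the farther mark-free peaks and 23.5% when every position of the territory within 10 kb was given its nearest region. When the nearest region held both marks, MOF was on it for 36.6% of members (33.8 to 39.4), against 41.7% of such positions. For regions with H3K4me3 alone the shares were 13.7 and 13.3%, and for H3K27ac alone 5.35 and 6.24%. The 20.2% was 12.4% with the MOF peaks of highest score alone and 31.9% with the mark peaks of highest significance alone. The share of the territory was not recomputed for these settings. They therefore do not show whether members lay below it there.

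The kinds of neighbour differed by a few percentage points from those of the territory. Of the nearest regions, 1190 held both marks (40.2%, 38.5 to 42), 953 held H3K27ac alone (32.2%) and 815 held H3K4me3 alone (27.6%, 25.9 to 29.2), where positions within 10 kb had 43.7, 31.6 and 24.7%. Regions with H3K4me3 alone were thus somewhat more frequent beside members than in the territory, and regions with both marks somewhat less frequent. For the farther mark-free peaks these shares were 34.9 and 37.4%, though their own territory was not counted. The members shared few neighbours, as 2841 regions served 2958 members, 2729 of them a single one. The nearest H3K4me3 peaks of members had a median fold enrichment of 6.78 (6.70 to 7.06), beside 6.59 (6.52 to 6.67) for the whole list, and the nearest H3K27ac peaks 5.04 (4.95 to 5.09), beside 4.90 (4.88 to 4.93). The neighbours of the farther mark-free peaks had higher medians, 7.10 (6.93 to 7.22) and 5.41 (5.33 to 5.49). By the −log10 q-value, the neighbours of members did not stand above the lists, with medians of 19.01 (17.1 to 20.7) beside 21.1 (20.6 to 21.8) for H3K4me3 and 7.24 (6.81 to 7.53) beside 7.51 (7.44 to 7.61) for H3K27ac.

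The next MOF peak stood a median of 18764.5 bp from a member. It was within 10 kb of 1003 members (33.9%, 32.2 to 35.6). For 540 of these, the next MOF peak was on both marks, and for 211 it was another member.

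Rfx2, a factor that binds the X-box of ciliary gene promoters, was not called at any member. The overlap was 0 of 2958 members, which allows a share of up to 0.101% when a count of 0 is read as at most 3, and up to 0.125% by the exact 95% interval, against 0.960% of all MOF peaks in the score range and 2.69% (2.29 to 3.13) of those on both marks. Of the 325 Rfx2 peaks on chromosomes 1 to 19, 6 were themselves free of both marks. The choice of mark-free peaks thus left little room for overlap, and the 0 is not a finding. The overlap was also 0 of the 6420 farther mark-free peaks and 0 of the 699 H3K27ac-only peaks. The Rfx2 peak closest to a member was 1651 bp away, and 25 members had one within 10 kb.

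A CTCF core stood out among the 16 motifs searched at the peak centres. It was present in the central 200 bp of 84 members (2.84%, 2.27 to 3.50), against 1.66% of all MOF peaks in the score range and 5 of 5916 windows of the same length 2 kb to either side of the members (0.0845%, 0.0274 to 0.197). The share exceeded that of the farther mark-free peaks (1.65%) by 1.19 points (0.549 to 1.91) and that of peaks on both marks (0.718%) by 2.12 points (1.53 to 2.81). Among H3K4me3-only peaks it was 3.90%, with a difference of -1.06 points (-2.47 to 0.121), so the motif was not particular to the members. The core was searched on both strands, and a match is a description of the sequence.

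The matches were most frequent at the centre of the widest inner block. With windows centred on the widest inner block of each peak, a choice made after seeing the data, 109 members had a match (3.68%, 3.04 to 4.43), 148 of the farther peaks (2.31%) and 57 of those on H3K4me3 only (5.06%). Matches peaked at 11.8 per 1000 members in the 50 bp just left of that centre. Over the whole peak, 167 members held a core (5.65%, 4.84 to 6.54). Those had a median score of 571 (557 to 610), beside 540 (527 to 553) for the rest, and a median width of 424 bp (383 to 533), beside 380 bp (372 to 393). A longer peak has more room for a match.

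**Figure D4:**
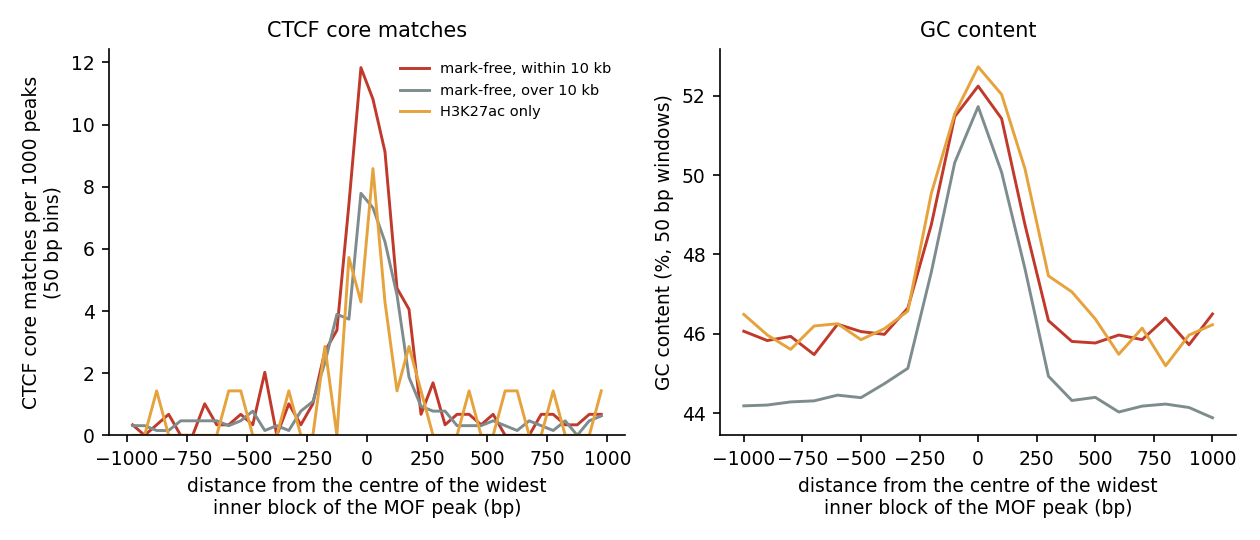
CTCF core matches per 1000 peaks in 50 bp bins (left) and GC content in 50 bp windows (right), by distance (bp) from the centre of the widest inner block of the MOF peak. Lines are mark-free peaks within 10 kb of a mark (red), mark-free peaks farther away (grey) and H3K27ac-only peaks (yellow). In members the matches reached 11.8 per 1000 at the centre, and the mean GC content of the central 200 bp was 51.9%, against 46.0 and 45.9% at 2 kb to the left and right.

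Counted from the motif, the mark-free genome within 10 kb of a mark held 3697 CTCF cores, of which 160 were in a member (4.33%, 3.69 to 5.03), while members covered 0.342% of that territory. A further 9 cores were in the parts of members that reach beyond 10 kb. Beyond 10 kb there were 7753 cores, with 259 in a mark-free MOF peak (3.34%, 2.95 to 3.77) and 0.191% of the territory covered. Both shares were above the covered part of the genome, and most cores were in no mark-free MOF peak. Inside marked regions, 286 of 795 cores were in a MOF peak of any class (36.0%, 32.6 to 39.4). The covered part of these regions was not computed, so this share cannot be set beside the others. The motif was found in 1 of the 197 members at gaps below 500 bp (0.508%, 0.0129 to 2.80), 14 of 503 at 0.5 to 2 kb (2.78%), 33 of 898 at 2 to 5 kb (3.67%, 2.54 to 5.12) and 36 of 1360 at 5 to 10 kb (2.65%).

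AP-1, the Fos and Jun dimer known at keratinocyte enhancers, showed no such pattern. Its letters, TGANTCA on either strand, were in 174 members (5.88%, 5.06 to 6.79), against 5.31% of all MOF peaks in the score range, 5.21% (4.65 to 5.80) of the windows 2 kb away and 5.86% of the farther mark-free peaks. A window of 400 bp gave 11.9% of members. H3K27ac-only peaks had 10.9%, a difference of -4.99 points (-7.64 to -2.71). The interval places the share of the members below that of the H3K27ac-only peaks.

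RUNX letters, TGTGGT, were in 16.5% of members, 15.7% of flanking windows and 12.7% of all MOF peaks in the score range. TEAD letters, GGAATG, were in 11.5, 10 and 10.5%. The GC-box, GGGCGG, which is bound by Sp1 at promoters, was in 5.61% (4.81 to 6.50) of members and 3.58% (3.12 to 4.09) of flanks. It was in 18.2% of all MOF peaks in the score range and 39.2% of those on both marks. The farther mark-free peaks had 5.30%, with 2.19% in their flanks, so the excess over flanks was not particular to the members. The letters AAGATGGC of YY1 were in 1.59% of members, 1.59% of flanks and 2.76% of all MOF peaks in the score range. They were in 3.52% of the farther mark-free peaks, a difference of -1.93 points (-2.55 to -1.26). The X-box was in 6 members (0.203%), in 0.389% of flanking windows and in 0.401% of all MOF peaks in the score range.

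Many of the members with the highest scores lay in repeated sequence. In 314 members (10.6%, 9.53 to 11.8), over 50% of the words of 31 bases occurred more than once in the assembly. Over all MOF peaks in the score range the share was 10.3%, with 19.1% in the farther mark-free peaks, 17.2% on H3K4me3 only, 1% on H3K27ac only and 0.634% on both marks. Members were 8.48 points below the farther peaks (-9.92 to -6.99) and 9.98 points above those on both marks (8.90 to 11.2). The part of repeated sequence in the peak calls was not tested.

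When members were ordered by score and split into 10 bins of 295 or 296 members, the share was highest in the top bin. In the bin with the lowest scores, 209 to 342, it was 5.41% (3.12 to 8.63), and in the bin with the highest, 879 to 6477, it was 27.5% (22.4 to 32.9). In bins 1 to 8 it lay between 5.41 and 10.5% with overlapping intervals, and in bin 9 it was 13.9% (10.2 to 18.4). Of the 53 members with a score of at least 1500, 27 were mostly repeated words (50.9%). The copies of the central word in the assembly are given for the 10 members with the highest scores.

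The member with the highest score, 6477, was chr4:41808553-41809207, in the intergenic space 34704 bp upstream of Ccl27a, which encodes a chemokine of keratinocytes. All of its words recurred (100%), and its central word, in capitals above, occurred 20 times, on chromosome 4 alone. A second member nearby, chr4:41810696-41812129, scored 5624, and its central word occurred 5 times on the same chromosome. A further one on chromosome 4, chr4:42764689-42765528, scored 3693 in an intron of 4930578G10Rik, 8744 bp upstream of Ccl19, and its central word occurred 8 times on that chromosome.

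Others of the 10 highest recurred across the genome. The central word of chr15:86194906-86195249, which scored 4406 at 8937 bp upstream of the ceramide kinase gene Cerk, occurred 12 times on 10 chromosomes. That of chr6:56240413-56240743, with a score of 4238 in an intron of the phosphodiesterase gene Pde1c, occurred 1368 times on 21 chromosomes. The sequence of chr13:34355193-34355583, with a score of 4000 at 10170 bp upstream of Slc22a23, has a run of A at its centre, and its central word occurred 80731 times on 21 chromosomes. The central word of chr16:35981510-35981890, which scored 4738 at 1663 bp upstream of Kpna1, an importin gene, occurred 1 time in the assembly. Of the words of that peak, 35.3% recurred. Copies that the assembly lacks are not counted, so the sequence need not be single in the genome. The remaining members of the 10 were chr7:130389967-130390195 (5954, upstream of Fgfr2, 6 copies on 6 chromosomes), chr19:60924557-60924901 (4552, in an intron of Grk5, 7 copies on 4 chromosomes) and chr11:3168587-3169020 (3742, in an intron of Sfi1, 4 copies on that chromosome).

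Members rarely formed groups. When members with gaps of at most 10 kb were joined, 2720 stood alone, 104 groups had 2 members, 5 had 3 and 2 had more. The largest, of 8 members, spanned chr11:3149588-3185524, with Pisd-ps1 and Sfi1, which encodes a centrosome protein, as nearest genes, and had scores of 294 to 3742, and 7 of the 8 were mostly repeated words. The next, of 7 members, spanned chr6:114537363-114571106, with Hrh1 and Atg7 as nearest genes and scores of 226 to 2895, and all 7 were mostly repeated words. Of the 5 groups of 3, the one with the highest summed score, at chr1:85079818-85088024 with A530040E14Rik as nearest gene, had scores of 537 to 1616, and all 3 were mostly repeated words.

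Counted by nearest TSS, Atg7, an enzyme of autophagy, and Sfi1 had 7 members each, A530040E14Rik and Rapgef4 had 5 each, and Ccl27a had 4. Of these 5 genes, Rapgef4, a guanine nucleotide exchange factor for Rap, was the only one without a mostly repeated member. Its 5 members spread over chr2:71934165-72153006, 3 of them in introns, with scores of 423 to 623 and gaps of 956 to 8174 bp to a mark.

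The 5 members closest to a mark had scores of 338 to 727. The member chr6:67115295-67115646, with a score of 338, touched an H3K4me3 peak without sharing a base and lay 78064 bp upstream of Gadd45a, a stress response gene. The next were chr17:26549751-26550131 (727, gap 4 bp), chr3:102309760-102310028 (690, gap 5 bp), chr11:99047649-99048034 (342, gap 6 bp, in an intron of Igfbp4) and chr2:106844214-106845214 (458, gap 8 bp, in an intron of Mpped2). At the other end, gaps of 9973 to 9998 bp were found at chr6:67688651-67689016 (801), chr5:144750066-144751208 (567, in an intron of Tmem130), chr14:25853144-25853517 (865, in an intron of Anxa11), chr1:134466397-134467911 (294, in an intron of Klhl12) and chr7:130761918-130762918 (2135, in an intron of Tacc2).

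The 5 widest members were led by chr4:147400657-147404923 (4267 bp, intergenic, 40324 bp from a TSS of Zfp982). The next were chr1:85597508-85601315 (3808 bp, with its centre 602 bp upstream of a TSS of Sp110) and chr4:3081818-3085221 (3404 bp, intergenic, 88563 bp from a TSS of Vmn1r2). The others were chr9:42975163-42978349 (3187 bp, in an intron of Arhgef12) and chr15:76102877-76105760 (2884 bp, in a coding exon of Eppk1). Eppk1 encodes epiplakin, a keratin-binding protein of epithelia built of repeated domains, and 94.0% of the words of that peak recurred. Among the 5, the Arhgef12 member had 4.34% and chr4:3081818-3085221 had 13.0% recurring words.

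Of the 24963 annotated genes on chromosomes 1 to 19, 1735 (6.95%) had a member within 10 kb of a TSS. In the lists of skin, organelle and signalling genes, counts were small and their intervals wide. No test was made of the lists, which were written with earlier results of these data known. A MOF peak on both marks was within 10 kb of a TSS for 28.1% of all genes, and for 19 of 25 electron transport chain, 17 of 25 ribosomal protein, 13 of 25 ciliary, 8 of 25 keratin and junction, 7 of 25 keratinocyte transcription factor, 5 of 24 cornified envelope and barrier lipid and 5 of 25 Notch, Wnt and hedgehog genes.

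Of the Notch, Wnt and hedgehog genes, a member was near 7 of 25 (28%, 12.1 to 49.4). The ligand genes were Wnt7b, Wnt10a and Wnt3. The Wnt7b member, chr15:85583145-85583678, scored 892, lay 1591 bp upstream of a TSS in an exon of the noncoding transcript AU022754, and was 611 bp from a region with both marks. The Wnt10a member, chr1:74787856-74788162, scored 557 at 4010 bp upstream, 3164 bp from a region with both marks, and carried the CTCF core shown above. The Wnt3 member, chr11:103779565-103780670, scored 498 in an intron.

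On the side of the effectors, Ctnnb1, which encodes β-catenin, had members of score 535 (chr9:120932438-120933232, 565 bp from a TSS) and 486 (chr9:120942356-120943551, in an intron). Tcf7l2, a partner of β-catenin on DNA, had members of score 478 and 389 in introns. The Notch targets were Hey1 and Hes1. The Hey1 member, chr3:8664527-8665111, scored 651 in a coding exon of Hey1, 1553 bp from an H3K4me3 peak. The Hes1 member, chr16:30068066-30068400, scored 486 at 2876 bp from a TSS and 604 bp from an H3K4me3 peak.

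**Figure D5:**
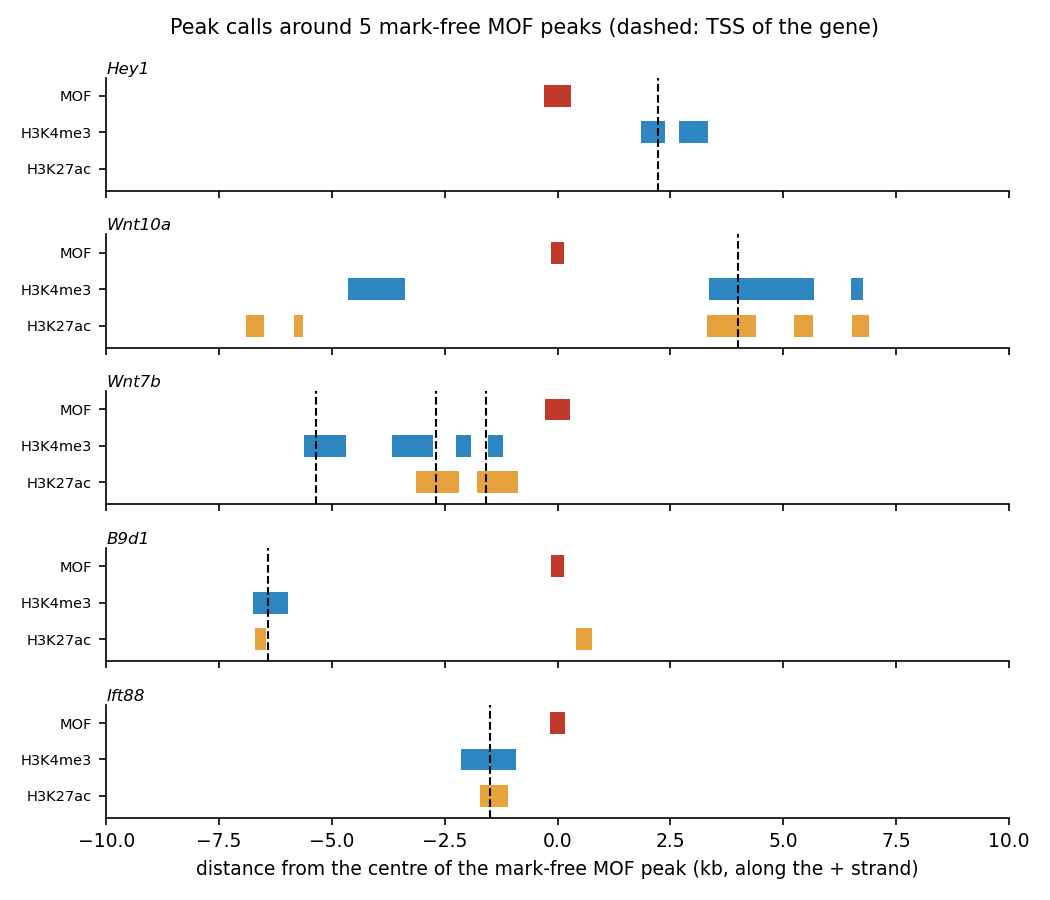
Peak calls of MOF (red), H3K4me3 (blue) and H3K27ac (yellow) around 5 members, by distance (kb) from the centre of the member along the + strand, with the TSSs of the named gene dashed. By the choice, a member cannot lie on a marked TSS. The distance from the TSS was 2219 bp at Hey1, 4010 bp at Wnt10a, 1591 bp at Wnt7b, 6407 bp at B9d1 and 1494 bp at Ift88.

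Ciliary genes had 3 of 25 (12%, 2.55 to 31.2). The B9d1 member, chr11:61511416-61511685, scored 727 in an intron of this transition zone gene, 282 bp from an H3K27ac peak. The Ift88 member, chr14:57425407-57425723, scored 494 in an intron of this gene of intraflagellar transport, 764 bp from a region with both marks. The member within reach of B9d2, of score 528, lay in an intron of its neighbour Tmem91.

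Electron transport chain genes had 2 of 25 (8%, 0.984 to 26), near the 6.95% of all genes, and both encode subunits of ATP synthase. Upstream of Atp5o, members scored 620 (chr16:91941023-91941270) and 494 (chr16:91936258-91936546), at 9517 and 4772 bp from the TSS. The Atp5a1 member scored 744 in an intron, and its nearest TSS was that of Haus1.

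Ribosomal protein genes had 3 of 25: the Rps6 member scored 763 (chr4:86852443-86854394), the Rps19 member 584 (chr7:24890351-24891972) and the Rpl8 member 466 (chr15:76905879-76906145, in an intron). Keratin and junction genes had 1 of 25, in an intron of the E-cadherin gene Cdh1 (chr8:106610707-106612157, score 571, 3817 bp from an H3K27ac peak). Cornified envelope and barrier lipid genes had 2 of 24. At Sprr2a1, a cornified envelope precursor, members scored 693 and 321 with 100% recurring words, and a member of score 576 lay in an intron of Dgat2, an enzyme of triglyceride synthesis.

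None of the 25 keratinocyte transcription factor genes had a member within 10 kb of a TSS (0%, up to 13.7). This interval includes the 6.95% of all genes, so no lack of members is shown. The intervals of the ciliary, electron transport chain, ribosomal protein, keratin and junction, and cornified envelope lists included it too. That of the Notch, Wnt and hedgehog list (12.1 to 49.4) lay above it, untested.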

How the data were processed

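MOF ChIPseq and Cut&Run peak lists of wild-type P0.5 mouse epidermis were used as deposited. Per the labels and the study's methods, reads were aligned to mm10 with Bowtie2 and peaks called with MACS2 in each library alone; no control library or blacklist is given in the sources used here. The deposited MOF list gives a region with inner blocks and a score, and is longer than the study's own count. The authors' peak caller gave the mark lists a fold enrichment, and a −log10 p-value and −log10 q-value per peak. The H3K4me3 list is attached to the repeat library by the labels, but its name lacks that mark, so its library is uncertain.

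Overlap meant at least 1 shared bp. Coordinates fitted GRCm38.p6, with 0 peaks past a chromosome end. Annotation came from curated RefSeq records of 26180 genes, and the territory was sampled every 100 bp. Shares carry exact (Clopper-Pearson) 95% intervals, differences Newcombe intervals, density ratios exact conditional intervals and medians order-statistic intervals. Differences are given as members minus the other class. No replicate test was possible. Python 3.11.15 code was tested on simulated data, where 0 of 20000 gaps differed from bedtools 2.31.1. Alternatives were other distance limits, score and significance subsets, a wider gap, no repeated words, protein-coding transcripts and other motif windows.

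The members, lists and tests were chosen with earlier results of these data known. Named are the 10 highest scores, the 5 smallest and 5 largest gaps, the 5 widest members, any with Rfx2, the 5 genes nearest to most members, the 3 highest scores per gene list (7 lists) and the 3 largest groups, ties broken by the summed score. Other names, including list genes beyond these, were chosen after their values were seen. The 4 CTCF sequences were taken from all chromosomes used but the eighteenth.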

Additional observations from a re-analysis of the deposited data

How the results depend on the processing

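No paired analysis was possible because a single peak list stood for every antibody, and no replicate could be left out. Of 48 values recomputed under other settings, 19 stayed within the 95% interval of the value reported and 29 moved outside it.

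With a distance limit of 5 kb, the share of mark-free MOF peaks near a mark was 17.0%, the density ratio 1.38, the TSS share 5.44%, the share of nearest regions with MOF 14.9% and that of high CpG content 4.69%. With 20 kb, the first was 48.7%, the density ratio 2.02 and the regions with MOF 22.6%. With MOF peaks restricted to the 50% of highest score, these were 29.5%, 1.57 and 12.4%, the median width was 361 bp, the repeated-word share 15.2% and the high CpG share 5.27%. With the 50% of peaks of each mark with the highest significance, the near share was 19.8%, the TSS share 5.98%, the regions with MOF 31.9% and the high CpG share 5.84%. With a gap over 1 kb as mark-free, the near share was 28.6%, the TSS share 2.61% and the regions with MOF 21.9%. Without peaks of repeated words, the near share was 33.7% and the density ratio 1.90. With protein-coding transcripts only, the TSS share was 2.97% and the intron share 41.4%. A 400 bp window gave 11.9% for AP-1, 4.19% for CTCF and 2.6% for high CpG content. Windows at the centre of the widest inner block, added after seeing the data, gave 3.68% for CTCF. The density ratio stayed above 1 under each of its 5 alternatives. No member overlapped Rfx2 under its 3, which the choice of mark-free peaks largely sets. The cause of these moves was not tested beyond what each setting changes by construction.

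The lists give no read counts, and the read totals the study states were not used here, so no limit from depth was computed. Intervals cover counting error over peaks, which are not independent where they share a repeat. Without a second MOF list, it cannot be told which members another library would contain.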

Other observations

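By chromosome, members numbered 79 on chromosome 18 to 274 on chromosome 11. Per Mb of mark-free genome within 10 kb of a mark, they ranged from 4.71 on chromosome 12 to 7.77 on chromosome 11, the chromosome that holds the group of members at Sfi1.

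Words of the mitochondrial genome were almost absent from the members. Only 1 of 2958 members held any, at 37.5% of its words, and 1 of the 6420 farther mark-free peaks did.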
